A study of Mus musculus with 24 samples.

Results

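The genes described here are 9 genes of the pericentral liver and of Wnt signalling: Glul, Oat, Slc1a2, Rgn, Gulo, Lect2, Lgr5, Axin2 and Tbx3. They were taken by their symbol from a table of 22355 genes, and all 9 were among the 11508 genes that passed a filter on low counts. Liver RNA had been sequenced from 24 diet-induced obese (DIO) mice in 3 groups of 8. Mice had been injected with vehicle or with IUB288, a code-named agonist of the glucagon receptor, for 4 d. The last injection came 22 h before collection in the vehicle group, and 4 h or 22 h before it in the IUB288 groups. All 3 groups were therefore obese mice without a lean control, and strain, sex, age and diet are not given in the sources used here. Livers at 4 h differed from the vehicle livers in treatment and in time since the injection, which cannot be told apart. The 8 vehicle livers serve in both comparisons with vehicle, so the values at 4 h and 22 h are set side by side and do not count as independent.

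Hepatocytes differ along the path that blood takes through the liver lobule, from the portal vein to the central vein. Endothelial cells of the central vein release Wnt proteins, which bind Frizzled and LRP receptors on nearby hepatocytes, stabilise beta-catenin and let it act with TCF/LEF factors on target genes. Hepatocytes next to the central vein are known for making glutamine, while those near the portal vein are known for urea synthesis and gluconeogenesis. Glucagon acts through cAMP and the factor CREB, and glucagon and Wnt are known as opposing signals in liver zonation. Bulk liver RNA holds all zones and cell types together, so fewer cells of a type and less RNA per cell cannot be told apart.

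The stretch before the start of a gene is shown for 4 of the genes because they moved in different directions: Oat and Slc1a2 rose at 4 h, while Glul and Lect2 fell. RefSeq promoter entries (GRCm38.p6) matched 5 of the 9 genes, these 4 and Axin2. Each window holds the 250 bases before the annotated start, read 5′ to 3′ on the strand of the gene. The windows are chr1:153899679-153899928 on the plus strand for Glul, chr7:132576399-132576648 on the minus strand for Oat, chr2:102706188-102706437 on the plus strand for Slc1a2 and chr13:56548539-56548788 on the minus strand for Lect2. The Slc1a2 window lies inside the annotated gene, before the start of a transcript. Capitals mark matches to the TCF/LEF letters CTTTGAT, here on the opposite strand.
Glul: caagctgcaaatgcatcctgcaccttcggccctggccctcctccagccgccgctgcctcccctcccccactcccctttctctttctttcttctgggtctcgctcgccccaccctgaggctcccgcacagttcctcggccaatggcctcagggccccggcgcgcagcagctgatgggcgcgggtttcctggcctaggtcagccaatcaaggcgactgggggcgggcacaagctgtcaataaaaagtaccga
Oat: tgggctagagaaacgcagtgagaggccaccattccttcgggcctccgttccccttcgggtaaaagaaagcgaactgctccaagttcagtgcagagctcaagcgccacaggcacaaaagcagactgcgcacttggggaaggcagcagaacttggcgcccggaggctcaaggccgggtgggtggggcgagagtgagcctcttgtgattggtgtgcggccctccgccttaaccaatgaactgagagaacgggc
Slc1a2: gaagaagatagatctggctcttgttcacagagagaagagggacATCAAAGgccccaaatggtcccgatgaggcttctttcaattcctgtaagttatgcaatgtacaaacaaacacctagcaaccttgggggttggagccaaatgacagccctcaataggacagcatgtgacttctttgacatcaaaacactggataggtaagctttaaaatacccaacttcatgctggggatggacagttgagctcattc
Lect2: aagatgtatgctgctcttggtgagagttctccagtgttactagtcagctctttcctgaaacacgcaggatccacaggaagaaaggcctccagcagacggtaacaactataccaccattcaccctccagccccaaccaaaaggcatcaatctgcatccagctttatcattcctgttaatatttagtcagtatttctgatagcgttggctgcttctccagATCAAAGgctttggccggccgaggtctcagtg

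A search of both strands looked for the TCF/LEF letters CTTTGAT and CTTTGAA, which share their first bases but cannot match at the same place, and for the cAMP response element core TGACG. Over all 32851 promoter windows of 250 bases, 3.21% held CTTTGAT, 4.46% held CTTTGAA and 17.8% held TGACG. A match to the first was found once in Slc1a2, from 207 to 201 bases before the start, and once in Lect2, from 32 to 26 bases before it. The 2 genes with a match moved in opposite directions at 4 h. None of the letters searched was found in the windows of Glul, Oat and Axin2, which says only that these letters are not in these windows. A match is a description of letters and not a binding site.

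The 9 genes covered a wide range of levels in vehicle livers. Levels are set side by side per kilobase of exon (GENCODE exons of GRCm38), in counts scaled to 1000000 per library (CPM). The length takes in every annotated exon of a gene, from 0.92 kb for Lect2 to 12.1 kb for Slc1a2. Which transcripts these livers make was not measured, so the order of genes depends on these lengths. Glul at 1008 ± 165 CPM per kb and Rgn at 904 ± 157 (SD, n = 8) had the highest means. Their spreads overlapped, and the 2 genes, measured in the same livers, were not tested against each other. Oat followed at 418 ± 148 CPM per kb. Gulo at 169.5 ± 26.9 and Lect2 at 163 ± 18.6 CPM per kb also had overlapping spreads and were not tested against each other. Slc1a2 reached 33.4 ± 8.41 CPM per kb, Tbx3 14.6 ± 3.00, Axin2 3.59 ± 0.88 and Lgr5 2.00 ± 0.55. At 4 h after IUB288 the order had changed at the top, with Oat at 1583 ± 576, Glul at 499 ± 88.4 and Rgn at 289 ± 53.2 CPM per kb. At 22 h Oat stood at 1732 ± 594, Glul at 582 ± 103 and Rgn at 284 ± 81.8 CPM per kb. The means of Glul and Rgn, highest in vehicle livers, were thus below that of Oat at both times.

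Of the 9 genes, 6 passed the limma-voom test at 4 h against vehicle (adjusted p under 0.05 over all 11508 genes). Oat and Slc1a2 were higher, and Glul, Rgn, Lect2 and Tbx3 were lower. Over all genes tested, 44.2% passed in that comparison, 21.7% higher and 22.5% lower. At 22 h 5 of the 9 passed, with Oat higher and Glul, Rgn, Lect2 and Axin2 lower, against 36.8% of all genes, 17.6% higher and 19.2% lower. Between 22 h and 4 h only Tbx3 passed, which was higher at 22 h, against 29.3% of all genes in either direction and 14.3% higher. For 5 of the 9 genes (Glul, Oat, Rgn, Lect2, Tbx3) the 8 livers at 4 h all lay outside the range of the 8 vehicle livers, which held for 16.1% of all genes. At 22 h this held for 3 (Glul, Oat, Rgn), against 7.41% of all genes, and for none of the 9 between 22 h and 4 h, against 10.7%. The median log2 fold change of the 9 genes was -0.32 at 4 h and -0.15 at 22 h, beside -0.07 and -0.02 over all genes tested. Between 22 h and 4 h the median was 0.13, beside -0.02.

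**Figure D1:**
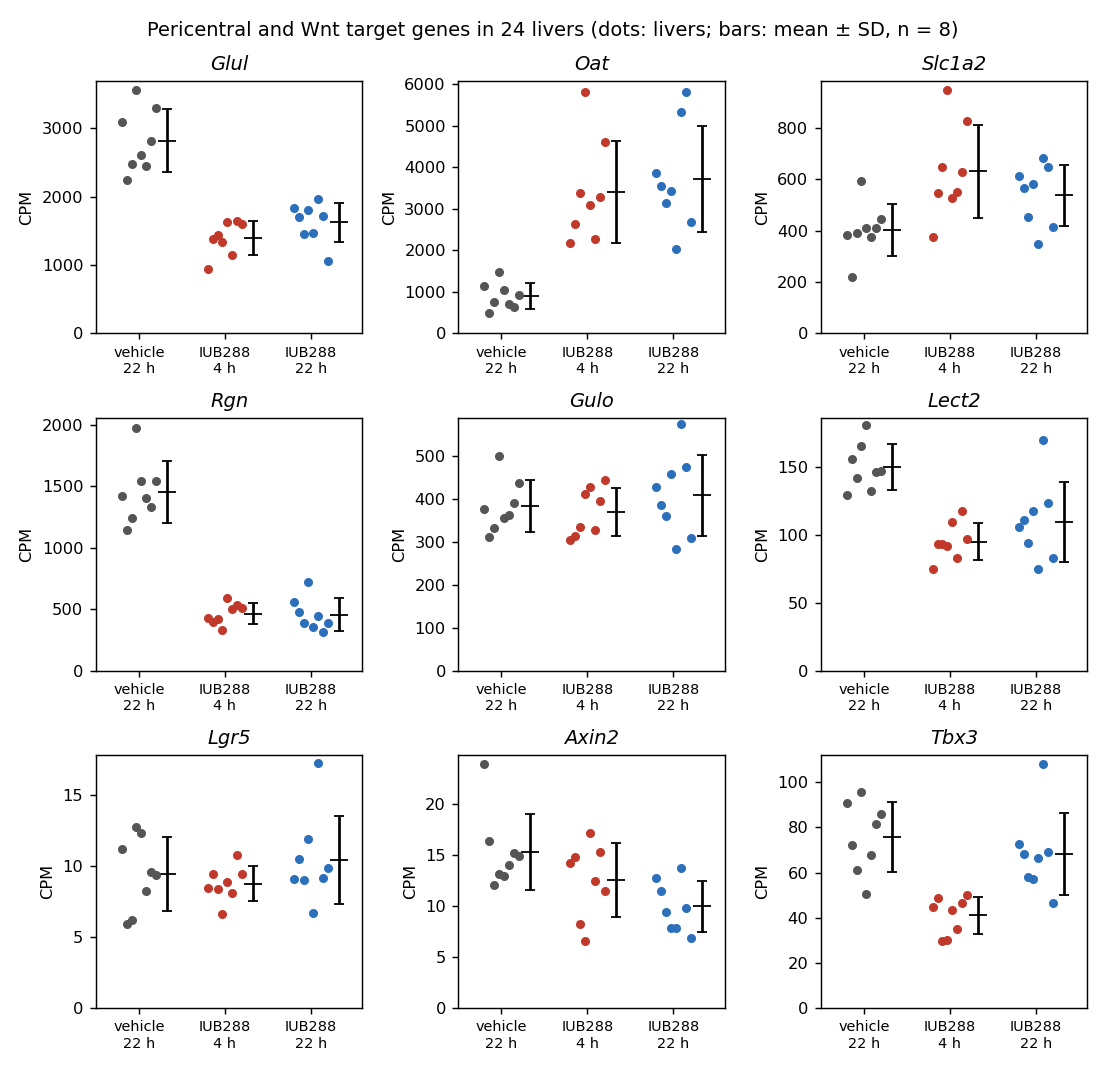
Library-scaled CPM (linear axis from 0) of the 9 genes in each of the 24 livers, with dots for livers and bars for the mean ± SD of 8 livers in the vehicle 22 h, IUB288 4 h and IUB288 22 h groups. Dots of the vehicle group do not overlap with either IUB288 group for Glul, Oat and Rgn, while Gulo and Lgr5 overlap in all 3 groups.

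Glul encodes glutamine synthetase, which joins ammonia to glutamate in the last hepatocytes before the central vein (chromosome 1, 153899944 to 153909723, plus strand). In vehicle livers Glul ran from 2234 to 3557 CPM with a median of 2704. At 4 h it ran from 947 to 1641 CPM with a median of 1413. At 22 h it ran from 1062 to 1959.6 CPM with a median of 1709.7. Every IUB288 liver at either time lay below every vehicle liver. Glul was 2.03-fold lower at 4 h (log2 fold change -1.02 ± 0.13 SE, adjusted p 3.59e-07) and 1.74-fold lower at 22 h (-0.80 ± 0.13, adjusted p 3.09e-05). The later value lay above the earlier one by 0.22 ± 0.12 on the log2 scale, which did not pass (adjusted p 0.202). Without replicate 8 of the 22 h group, its lowest liver, that difference was 0.31 and passed (adjusted p 0.0445). With all livers kept, the difference was uneven, at 0.42 in livers with label numbers 1 to 12 and 0.02 in 13 to 24.

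Oat encodes ornithine aminotransferase, a mitochondrial enzyme that takes an amino group from ornithine and forms glutamate (chromosome 7, 132557478 to 132576398, minus strand). Vehicle livers held 483 to 1475 CPM of Oat, with a median of 833. Livers at 4 h held 2175 to 5811 CPM, with a median of 3195. Livers at 22 h held 2023 to 5812 CPM, with a median of 3485. The lowest IUB288 liver was above the highest vehicle liver, and the spread within each group was wide (coefficients of variation of 35.5%, 36.4% and 34.3%). The rise was 3.83-fold at 4 h (log2 fold change 1.94 ± 0.23, adjusted p 1.60e-07) and 4.18-fold at 22 h (2.06 ± 0.23, adjusted p 2.04e-07). Of the 9 genes it was the largest change in either direction at both times. Between the times Oat differed by 0.13 on the log2 scale (95% interval -0.36 to 0.62, adjusted p 0.741).

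Slc1a2 encodes the glutamate transporter GLT-1, which carries glutamate into pericentral hepatocytes (chromosome 2, 102658659 to 102790784, plus strand). Its level was 220.1 to 592 CPM in vehicle livers, with a median of 401. It was 375 to 947 CPM at 4 h, with a median of 591, and 350.3 to 683 CPM at 22 h, with a median of 574. The groups overlapped at both times, and 7 of 8 IUB288 livers lay above the vehicle mean at each. Slc1a2 rose 1.56-fold at 4 h (log2 fold change 0.64 ± 0.18, adjusted p 0.00498). At 22 h the value was 0.42 ± 0.18, just short of the threshold (adjusted p 0.0624). That call was near the line: without replicate 4 of the vehicle group, its highest liver, the value was 0.51 (adjusted p 0.0253), and without replicate 5 of the 22 h group, its lowest, it was also 0.51 (adjusted p 0.0280).

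Between groups, the IUB288 livers thus had less mRNA of glutamine synthetase and more of Oat, and at 4 h of Slc1a2, than vehicle livers. The other 18 tested genes of glutamate, glutamine and ornithine metabolism were counted as a list. At 4 h 9 were higher, 1 was lower and 8 did not pass, with a median log2 fold change of 0.38. At 22 h 7 were higher, 1 was lower and 10 did not pass, with a median of 0.17. Of all genes tested, 21.7% were higher and 22.5% lower at 4 h, and 17.6% and 19.2% at 22 h. Got1, the cytosolic aspartate aminotransferase, went from 134 CPM in vehicle livers to 1426 at 4 h and 641 at 22 h (log2 fold changes 3.39 ± 0.21 and 2.20 ± 0.21, adjusted p 3.21e-12 and 1.47e-08). Slc25a15, the mitochondrial ornithine carrier, rose from 394 CPM to 1677 at 4 h and 691 at 22 h (2.07 ± 0.12 and 0.79 ± 0.11, adjusted p 7.02e-13 and 8.95e-06). Gls2, the liver glutaminase that releases ammonia from glutamine near the portal vein, rose from 175 CPM to 649 at 4 h and 811 at 22 h (1.88 ± 0.13 and 2.23 ± 0.13, adjusted p 2.78e-11 and 1.01e-11). Cps1, the first enzyme of the urea cycle, rose from 1495 CPM to 3685 at 4 h and 3268 at 22 h (1.28 ± 0.15 and 1.14 ± 0.15, adjusted p 1.28e-07 and 2.11e-06). Between the times, Got1 and Slc25a15 were lower at 22 h by 1.18 and 1.28 on the log2 scale, while Slc38a7, a glutamine transporter, was higher by 0.54 (adjusted p 0.000143, 7.26e-09 and 3.71e-06).

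Rgn encodes regucalcin, the lactonase of the step before last in ascorbate synthesis (chromosome X, 20549787 to 20562089, plus strand). Rgn ran from 1149 to 1974 CPM in vehicle livers, with a median of 1414. At 4 h it ran from 329 to 591 CPM, with a median of 465, and at 22 h from 313 to 720.2 CPM, with a median of 416. The highest IUB288 liver was well below the lowest vehicle liver. Rgn fell 3.14-fold at 4 h (log2 fold change -1.65 ± 0.15, adjusted p 1.42e-09) and 3.25-fold at 22 h (-1.70 ± 0.15, adjusted p 3.01e-09). Its values at the 2 times differed by -0.05 on the log2 scale (95% interval -0.34 to 0.24, adjusted p 0.827). That value joins opposite differences, 0.42 in livers with label numbers 1 to 12 and -0.52 in 13 to 24. Rgn is therefore not shown to be level between the times.

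Gulo encodes gulonolactone oxidase, which takes the product of regucalcin and makes ascorbate in the final step (chromosome 14, 65986786 to 66009207, minus strand). Unlike Rgn, Gulo had overlapping groups. It ran from 311 to 501 CPM in vehicle livers, from 304 to 444 at 4 h and from 284 to 574 at 22 h, with medians of 370.1, 365 and 407. The log2 fold change was -0.05 at 4 h (95% interval -0.31 to 0.20, adjusted p 0.763) and 0.07 at 22 h (-0.18 to 0.33, adjusted p 0.683). These intervals do not reach the size of the Rgn change in either comparison, although Rgn against Gulo was not tested.

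The other 8 tested genes of a list for ascorbate synthesis, transport and recycling changed in both directions. The list also holds Dhcr7, a gene of cholesterol synthesis, which is among the lower ones at both times. At 4 h 5 were higher, 2 were lower and 1 did not pass, and at 22 h 4 were higher, 2 were lower and 2 did not pass. The share of all genes that passed was 44.2% at 4 h and 36.8% at 22 h. Upstream of Rgn, Ugp2, which makes UDP-glucose, rose from 1232 CPM to 2124 at 4 h and 1754 at 22 h (log2 fold changes 0.79 ± 0.09 and 0.50 ± 0.09, adjusted p 4.92e-08 and 7.84e-05). Gusb, a lysosomal beta-glucuronidase, rose from 48.5 CPM to 80.6 at 4 h and 56.5 at 22 h (0.74 ± 0.06 and 0.23 ± 0.06, adjusted p 2.67e-10 and 0.00483). Slc23a3, a member of the ascorbate transporter family, rose from 0.85 CPM to 2.76 at 4 h and 1.34 at 22 h (1.72 ± 0.20 and 0.68 ± 0.22, adjusted p 1.59e-07 and 0.0180). The ascorbate transporter Slc23a1, named after its values were seen, fell from 133 CPM to 105 at 4 h and 102 at 22 h (-0.34 ± 0.08 and -0.38 ± 0.08, adjusted p 0.00192 and 0.00106). Gsto1, a glutathione transferase that reduces dehydroascorbate, rose from 48.1 CPM to 63.4 at 4 h and 72.5 at 22 h (0.38 ± 0.09 and 0.58 ± 0.09, adjusted p 0.00121 and 1.72e-05). Dhcr7, a listed gene that is known for the last step of cholesterol synthesis, fell from 101 CPM to 65.5 at 4 h and 36.4 at 22 h (-0.62 ± 0.14 and -1.50 ± 0.15, adjusted p 0.000873 and 3.13e-08).

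Lect2 encodes a protein that hepatocytes secrete and that is known as a beta-catenin target in liver (chromosome 13, 56542464 to 56548502, minus strand). Vehicle livers held 129 to 181 CPM of Lect2, with a median of 146. Livers at 4 h held 75.2 to 118 CPM, with a median of 93.3, all below the vehicle livers. Livers at 22 h held 74.6 to 169.6 CPM, with a median of 108, and the highest, replicate 6, lay within the vehicle range. Lect2 was 1.58-fold lower at 4 h (log2 fold change -0.66 ± 0.12, adjusted p 9.45e-05) and 1.40-fold lower at 22 h (-0.48 ± 0.12, adjusted p 0.00336). The difference between the times, 0.18 ± 0.12, did not pass (adjusted p 0.296).

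**Figure D2:**
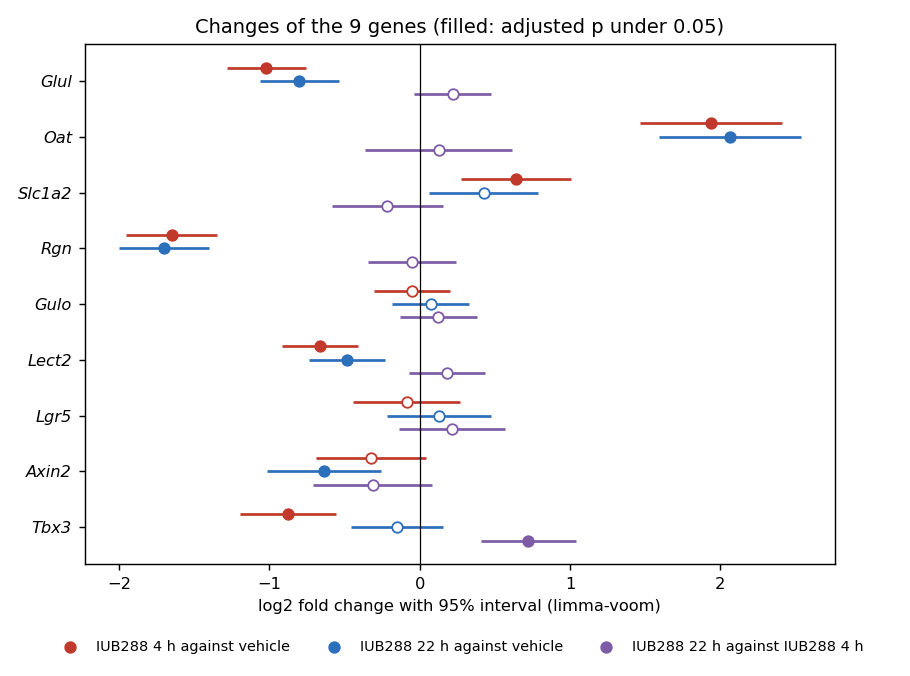
Log2 fold changes (points) with 95% intervals (lines) of the 9 genes from limma-voom, for IUB288 4 h against vehicle, IUB288 22 h against vehicle and IUB288 22 h against 4 h, with filled points for adjusted p under 0.05. The rise of Oat and the falls of Glul, Rgn and Lect2 passed against vehicle at both times, and Tbx3 was the only gene that passed between the times.

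The 3 regulators of the set differed in which comparisons passed, and they were not tested against each other. Lgr5 encodes the R-spondin receptor that strengthens Wnt signalling at the cell surface (chromosome 10, 115450311 to 115587780, minus strand). It was low, at 5.92 to 12.8 CPM in vehicle livers, 6.60 to 10.8 at 4 h and 6.72 to 17.3 at 22 h, with medians of 9.46, 8.68 and 9.50, and all groups overlapped. Its log2 fold change was -0.09 at 4 h (95% interval -0.45 to 0.27, adjusted p 0.708) and 0.13 at 22 h (-0.22 to 0.47, adjusted p 0.582).

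Axin2 encodes a scaffold of the complex that degrades beta-catenin, and it is itself a target that feeds back on the pathway (chromosome 11, 108920349 to 108950783, plus strand). Axin2 ran from 12.0 to 23.9 CPM in vehicle livers, with a median of 14.4. At 4 h it ran from 6.52 to 17.1 CPM, with a median of 13.3, and at 22 h from 6.88 to 13.8 CPM, with a median of 9.58. The groups overlapped, and all 8 livers at 22 h lay below the vehicle mean. At 22 h Axin2 was 1.55-fold lower (log2 fold change -0.64 ± 0.18, adjusted p 0.00871). At 4 h the value was -0.32 ± 0.18 (adjusted p 0.140), and the test between the times gave -0.31 ± 0.19 (adjusted p 0.241). The 4 h value was uneven between livers with label numbers 1 to 12 (-0.61) and 13 to 24 (-0.03), while the 22 h value was -0.63 and -0.62. The highest vehicle liver for Axin2, replicate 1, was also the only library with much mRNA of brown fat genes: Ucp1 was at 1388 CPM there and at most 0.58 in the other 23. Without that liver the 4 h value of Axin2 was -0.20 (adjusted p 0.339), and the 22 h value was -0.51 and still passed (adjusted p 0.0217).

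Tbx3 encodes a T-box transcription factor that acts downstream of beta-catenin in liver (chromosome 5, 119670669 to 119684724, plus strand). Vehicle livers held 50.4 to 95.8 CPM of Tbx3, with a median of 76.9. Livers at 4 h held 29.7 to 50.1 CPM, with a median of 44.1, just below the lowest vehicle liver. Livers at 22 h held 46.5 to 108.1 CPM, with a median of 67.2, within or above the vehicle range except for replicate 8. Tbx3 was 1.84-fold lower at 4 h (log2 fold change -0.88 ± 0.15, adjusted p 4.96e-05). At 22 h its value against vehicle was -0.15 (95% interval -0.46 to 0.15, adjusted p 0.440). The test between the times gave 0.72 ± 0.15 (adjusted p 0.000706), with all 8 livers at 22 h above the 4 h mean. Tbx3 was thus low at 4 h and higher again at 22 h, while Glul, Oat, Rgn and Lect2 did not pass that test.

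The other Wnt genes were counted by role, from lists that share some genes. Of 11 tested Wnt target genes beside the 9, 2 were higher, 4 were lower and 5 did not pass at 4 h, and the counts at 22 h were also 2, 4 and 5. Beside these counts, 44.2% of all genes tested passed at 4 h and 36.8% at 22 h. Tnfrsf19, a receptor of the TNF family, fell from 23.3 CPM to 5.52 at 4 h and 14.2 at 22 h (log2 fold changes -2.13 ± 0.18 and -0.73 ± 0.14, adjusted p 4.20e-10 and 0.000215). Like Tbx3, it was higher at 22 h than at 4 h (1.39 ± 0.18, adjusted p 1.68e-06). Myc, a growth factor-responsive transcription factor, was at 9.74 CPM in vehicle livers, 36.5 at 4 h and 18.2 at 22 h (1.88 ± 0.33 at 4 h, adjusted p 4.31e-05). Jun, a subunit of AP-1, was at 64.6, 68.9 and 40.6 CPM and was lower at 22 h than in vehicle livers (-0.62 ± 0.16, adjusted p 0.00424).

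Znrf3 and Rnf43 encode paralogous ubiquitin ligases that remove Frizzled receptors from the cell surface, and both are known Wnt targets. Znrf3 rose from 22.5 CPM to 42.1 at 4 h and 30.6 at 22 h (log2 fold changes 0.90 ± 0.05 and 0.45 ± 0.06, adjusted p 1.54e-12 and 1.05e-06). At each time all 8 IUB288 livers lay above the vehicle mean. Rnf43, named after its values were seen, was at 6.14, 3.04 and 3.08 CPM and fell at both times (-0.86 ± 0.26 and -0.74 ± 0.26, adjusted p 0.0103 and 0.0271). The 2 ligases thus moved in opposite directions.

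Among 14 tested receptors and receptor regulators other than Lgr5, 5 were higher, 5 were lower and 4 did not pass at 4 h, and 4 were higher, 4 were lower and 6 did not pass at 22 h. The share of all genes that passed was 44.2% at 4 h and 36.8% at 22 h. The Wnt co-receptor Lrp5 rose from 72.8 CPM to 111 at 4 h and was at 67.5 at 22 h (log2 fold change 0.61 ± 0.06 at 4 h, adjusted p 7.25e-09). Lrp6, its paralogue, named after its values were seen, was at 189.8, 264 and 214 CPM (0.48 ± 0.09 at 4 h, adjusted p 0.000120). Lgr4, a close relative of Lgr5, rose from 93.2 CPM to 165 and 132 (0.81 ± 0.09 and 0.51 ± 0.09, adjusted p 3.90e-08 and 7.85e-05), while Lgr5 itself did not pass. Fzd1, a Frizzled receptor, fell from 15.8 CPM to 10.2 at 4 h and 11.5 at 22 h (-0.65 ± 0.09 and -0.48 ± 0.09, adjusted p 1.44e-06 and 0.000128). Ror1, a receptor for non-canonical Wnt signals, was at 11.3 CPM in vehicle livers, 6.70 at 4 h and 11.1 at 22 h, and was higher at 22 h than at 4 h (0.72 ± 0.12, adjusted p 5.57e-05).

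Ligands and secreted modulators were low in bulk liver, and 11 of 27 in the table could be tested. At 4 h 1 was higher, 2 were lower and 8 did not pass. Of all genes tested, 44.2% passed at 4 h and 36.8% at 22 h. Wnt5b fell from 8.64 to 5.44 CPM and Wnt5a from 5.27 to 3.02 (log2 fold changes -0.64 ± 0.12 and -0.85 ± 0.25, adjusted p 0.000107 and 0.00659), while Wnt2b rose from 2.55 to 3.45 (0.53 ± 0.17, adjusted p 0.0145). At 22 h 3 were lower, Wnt5a, Sfrp1 and Frzb, with values of -0.66 ± 0.24, -1.19 ± 0.41 and -0.80 ± 0.29 (adjusted p 0.0320, 0.0263 and 0.0332). Sfrp1 and Frzb encode secreted Wnt antagonists. That count of 3 rested on few livers: it was 1 without vehicle replicate 6 or 8 and 0 without replicate 6 or 7 of the 22 h group. Without vehicle replicate 1, the liver with brown fat mRNA, Wnt5a and Sfrp1 were at -0.55 and -0.93 and did not pass (adjusted p 0.0724 and 0.0573), and Frzb did not pass without vehicle replicate 2 or replicate 2 of the 22 h group (adjusted p 0.0583 and 0.0594). Of the central vein ligands, named after their values were seen, Wnt2 was at 4.86, 4.39 and 4.11 CPM and Wnt9b at 0.80, 1.13 and 0.81 CPM, and neither passed at 4 h (adjusted p 0.463 and 0.283) or 22 h (adjusted p 0.285 and 0.956).

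Inside the cell, 27 tested genes of the beta-catenin pathway beside Axin2 changed in both directions. At 4 h 9 were higher, 3 were lower and 15 did not pass, with a median log2 fold change of 0.05, and at 22 h 8 were higher, 2 were lower and 17 did not pass, with a median of 0.04. Beside these counts, 44.2% of all genes tested passed at 4 h and 36.8% at 22 h. Ctnnb1, beta-catenin itself and named after its values were seen, was at 237 ± 11.0 CPM in vehicle livers, 249.8 ± 10.0 at 4 h and 244 ± 10.7 at 22 h, and did not pass (adjusted p 0.126 and 0.422), although it did at 4 h with sample quality weights (0.09, adjusted p 0.0343). Axin1, the paralogue of Axin2 in the degradation complex, rose from 21.9 CPM to 34.7 at 4 h and 26.7 at 22 h (0.66 ± 0.05 and 0.28 ± 0.05, adjusted p 3.00e-10 and 0.000370). Axin2 itself was lower at 22 h and did not pass at 4 h. Crebbp, a coactivator of both beta-catenin and CREB, rose from 77.5 CPM to 103.9 at 4 h and 87.7 at 22 h (0.42 ± 0.04 and 0.18 ± 0.04, adjusted p 2.20e-08 and 0.00260). Btrc, which marks beta-catenin for destruction, fell from 21.0 CPM to 15.1 and 17.8 (-0.48 ± 0.06 and -0.26 ± 0.06, adjusted p 1.11e-06 and 0.00221). The corepressors Tle1 and Tle2 were higher at 22 h, at 49.8 against 37.2 and 9.02 against 4.77 CPM (0.43 ± 0.07 and 0.92 ± 0.16, adjusted p 3.20e-05 and 7.06e-05). Between the times, Tcf7l2, the main TCF factor of liver, was higher at 22 h at 46.3 against 31.2 CPM, with 35.6 in vehicle livers (0.56 ± 0.08, adjusted p 2.46e-06), and Fbxw11, the paralogue of Btrc, was lower at 58.9 against 76.9 CPM, with 62.9 in vehicle livers (-0.39 ± 0.05, adjusted p 3.04e-06).

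**Figure D3:**
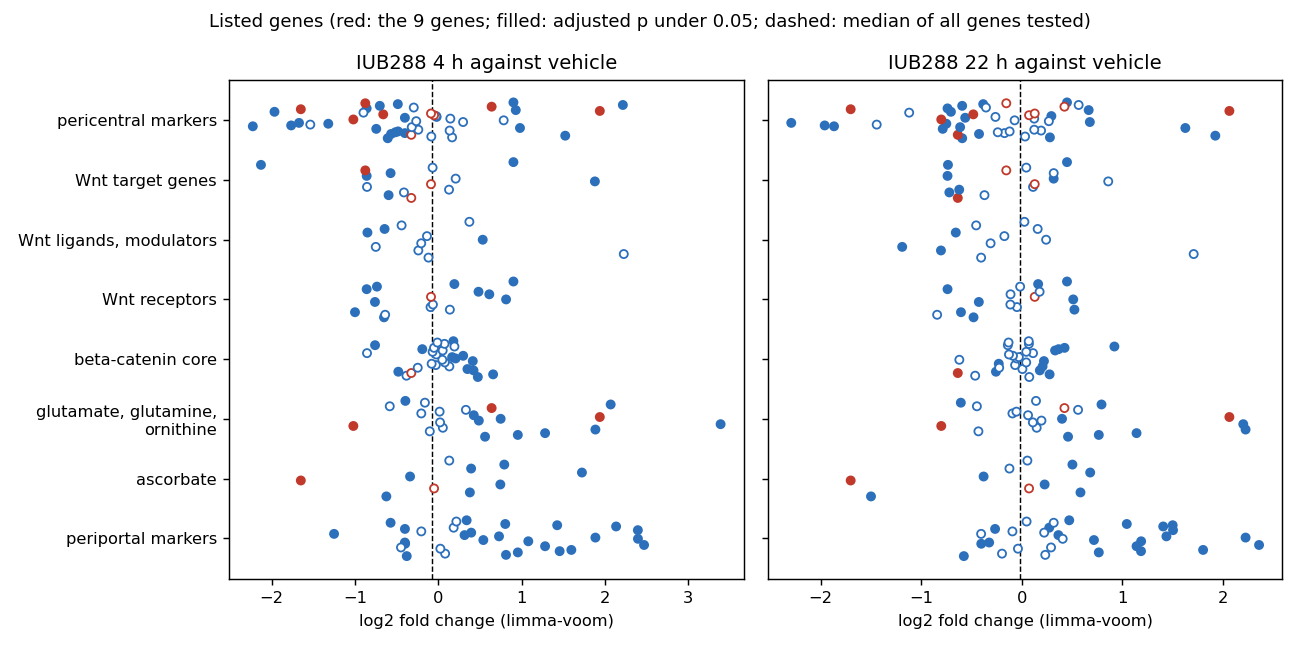
Log2 fold changes from limma-voom of the tested genes of 8 lists, IUB288 4 h against vehicle on the left and 22 h against vehicle on the right, with red for the 9 genes, filled points for adjusted p under 0.05 and a dashed line at the median of all genes tested. Pericentral markers lie mostly to the left of that line and periportal markers mostly to its right, with members of both lists on either side.

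The 9 genes were set beside other markers of the lobule's 2 ends. Of 34 other tested pericentral markers, 5 were higher, 15 were lower and 14 did not pass at 4 h, with a median log2 fold change of -0.36. At 22 h 7 were higher, 13 were lower and 14 did not pass, with a median of -0.25. Of all genes tested, 21.7% were higher and 22.5% lower at 4 h, and 17.6% and 19.2% at 22 h. Cyp27a1, which hydroxylates sterols on the way to bile acids, fell from 346 CPM to 206 at 4 h and 200.1 at 22 h (-0.74 ± 0.06 and -0.79 ± 0.06, adjusted p 5.62e-10 and 8.97e-10). Cyp2e1, an ethanol-oxidising P450 enzyme named after its values were seen, was at 7918, 3156 and 4699 CPM (-1.32 ± 0.18 and -0.75 ± 0.18, adjusted p 1.21e-06 and 0.00208). Nr1i3, the nuclear receptor CAR, was at 125, 32.4 and 79.7 CPM and was higher at 22 h than at 4 h (1.26 ± 0.18, adjusted p 4.47e-06). As with Oat among the 9, some pericentral markers rose: Ang, a ribonuclease, from 58.8 CPM to 171 and 226 (1.52 ± 0.14 and 1.92 ± 0.14, adjusted p 2.04e-09 and 1.59e-10), and Cyp2a5, a coumarin hydroxylase, from 435 CPM to 819 and 1300.0 (0.98 ± 0.17 and 1.63 ± 0.18, adjusted p 5.40e-05 and 1.37e-07). Slc22a3, an organic cation transporter, was at 16.5 CPM in vehicle livers, 70.1 at 4 h and 22.4 at 22 h, and was lower at 22 h than at 4 h (-1.65 ± 0.21, adjusted p 7.14e-07). Of 30 periportal markers, 18 were higher, 6 were lower and 6 did not pass at 4 h, with a median of 0.47, and 16, 4 and 10 at 22 h, with a median of 0.39. Fbp1, of gluconeogenesis, and Ass1, of the urea cycle, rose by 1.08 ± 0.08 and 1.60 ± 0.12 at 4 h and by 1.19 ± 0.08 and 1.80 ± 0.12 at 22 h (adjusted p 2.49e-11 and 1.37e-10, then 1.82e-11 and 7.22e-11).

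Markers of other cell types also changed in these comparisons. Beside the counts that follow, 21.7% of all genes tested were higher and 22.5% lower at 4 h. The shares at 22 h were 17.6% and 19.2%. Hepatocyte markers, summed over 15 genes, ran from 92823 to 147545 CPM in vehicle livers, 104501 to 135439 at 4 h and 98783 to 130807 at 22 h; no gene of this list or of the other cell type lists was at 0 in a whole group. Of the 15, 6 were higher and 7 lower at 4 h, and 7 higher and 4 lower at 22 h. Endothelial markers, summed over 15 genes, ran from 482 to 884 CPM in vehicle livers, 516 to 608 at 4 h and 240.2 to 564 at 22 h, and all 15 were lower at 22 h. Stellate cell markers were lower at 22 h for 15 of 16 genes, Kupffer cell markers for 8 of 12, and central vein endothelial markers for 6 of 10, and in these lists none was higher. Summed stellate markers ran from 1008 to 1940.4 CPM in vehicle livers, 597 to 986 at 4 h and 321 to 919 at 22 h, and summed Kupffer markers from 404 to 1212, 366 to 635 and 162 to 701. At 4 h stellate markers were lower for 8 of 16 genes, endothelial markers for 5 of 15 and bile duct cell markers for 4 of 9, with none higher. The endothelial count at 4 h was 8 without vehicle replicate 2, 3 without 4 h replicate 2 or 3 and 2 without 4 h replicate 6. Glul, Rgn and Lect2 at both times, Tbx3 at 4 h and Axin2 at 22 h fell in the same comparisons as these markers, whose part in those results was not tested. Summed central vein endothelial markers ran from 99.7 to 2124 CPM in vehicle livers, 79.8 to 106.8 at 4 h and 54.6 to 89.7 at 22 h. The vehicle maximum is replicate 1, where Fabp4, also a fat cell gene, was at 2001 CPM against at most 41.1 elsewhere. Without that liver, 4 of the 10 central vein endothelial markers passed at 22 h in place of 6. Lymphocyte markers were lower at 22 h for 6 of 15 genes, bile duct cell markers for 3 of 9, red cell markers for 4 of 5 with 1 higher, and brown fat markers for 2 of 5.

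Within a group, some livers were the lowest or highest for most of the 9 genes at once. Others, such as vehicle replicates 6, 7 and 8, were so for none. How often livers are extreme in this way for other genes was not measured. Vehicle replicate 2 was the lowest of its group for 6 genes (Glul, Oat, Slc1a2, Rgn, Gulo, Lgr5), and vehicle replicate 4 the highest for 7 (the same 6 and Tbx3). At 4 h replicate 1 was lowest for 5 (Glul, Oat, Slc1a2, Gulo, Lect2). At 22 h replicate 6 was highest for 7 (Glul, Slc1a2, Gulo, Lect2, Lgr5, Axin2, Tbx3) and replicate 5 lowest for 5 (Oat, Slc1a2, Gulo, Lect2, Lgr5). The 9 values of a liver share its library and scaling.

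**Figure D4:**
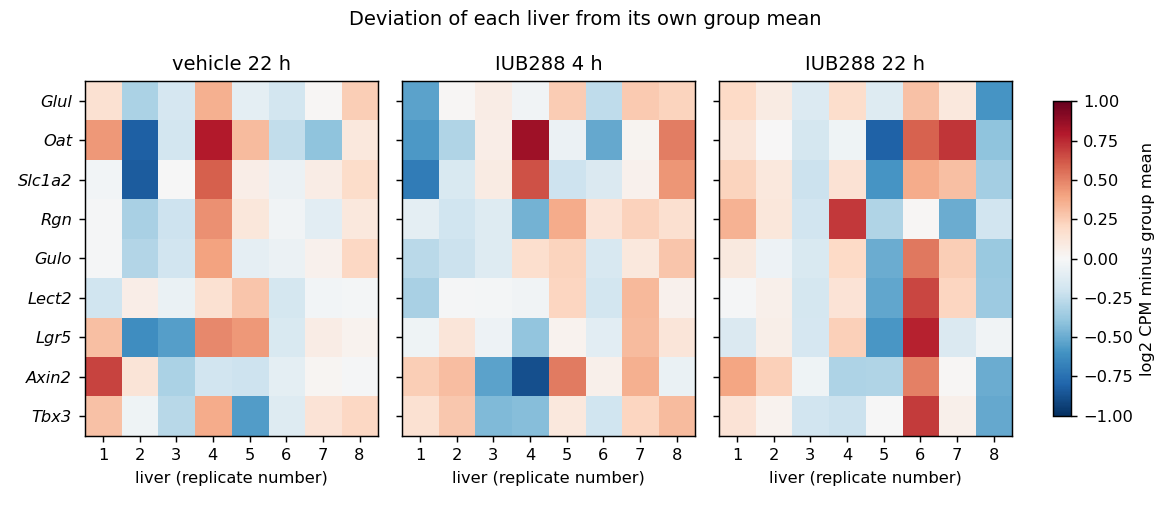
Deviation of each liver's log2 CPM from its own group mean for the 9 genes (rows) in the 8 livers of each group (columns), red above and blue below the mean, with the scale ending at 1 in each direction. Columns of mostly 1 colour, such as vehicle replicates 2 and 4 and replicates 5 and 6 of the 22 h group, are livers that were low or high for several of the genes.

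The relation of Glul to each of the other 8 genes was measured over the 8 livers of each group, 24 relations in all, by exact 2-sided permutation tests of log2 CPM. Pearson's r was above 0 in all 24, with medians of 0.77 in vehicle livers, 0.49 at 4 h and 0.75 at 22 h. The same r was not computed for genes outside the set. After Benjamini-Hochberg adjustment over the 24, 3 passed by Pearson's r and 1 by Spearman's rho, while 13 and 12 had an unadjusted p under 0.05. Glul and Gulo in vehicle livers had r = 0.94 (exact permutation p 0.000347, adjusted 0.00417) and rho = 0.90 (p 0.00456, adjusted 0.0548), and r was 0.83 without the 2 livers farthest from the median of Glul. Glul and Slc1a2 in vehicle livers had r = 0.81 (exact permutation p 0.00446, adjusted 0.0357) and rho = 0.86 (p 0.0107, adjusted 0.0643), and r was 0.66 without the 2 livers. Glul and Lect2 at 4 h had r = 0.93 (exact permutation p 0.000124, adjusted 0.00298) and rho = 0.98 (p 0.000397, adjusted 0.00952), and r was 0.83 without the 2 livers. Glul and Oat, which moved in opposite directions between groups, had r = 0.80 in vehicle livers, 0.55 at 4 h and 0.64 at 22 h, none of which passed (exact permutation, adjusted p 0.0619, 0.235 and 0.160), with rho = 0.76, 0.45 and 0.74 (adjusted p 0.0882, 0.338 and 0.0917). Without 2 livers each, the vehicle and 22 h values were 0.72 and 0.77, and the 4 h value turned to -0.23, so it rests on those livers. Livers with label numbers 1 to 12 and 13 to 24 number 4 per group, too few for a correlation within either range.

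For each of the 7 genes that passed a comparison, the genes with the most similar pattern were sought among 7938 tested genes of at least 1 CPM, by the root mean square (RMS) difference of log2 CPM over the 24 livers after centring each gene. Among the nearest genes, Glul had Pfn2 (0.24), set against its own SD of 0.51, and Lect2 had Blvrb (0.19). Rgn was nearest to Ugt1a6b (0.29) and Ces2e (0.31), and Oat to Gnmt (0.36) and Ang (0.37). Slc1a2 was nearest to Alas2 (0.24) and Farp2 (0.25), Axin2 to Stk38l (0.29) and Nid2 (0.30), and Tbx3 to Pold2 (0.25) and Rnpep (0.25). Gnmt, a methyltransferase that uses S-adenosylmethionine, went from 448 CPM to 1375 and 1554 in the pattern of Oat.

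Library totals ran from 13.99 to 44.1 M counts, and chi-square per degree of freedom between libraries of a group was at least 19.3 over 84 pairs, so no library was a copy of another. The direction of the called changes of the 9 genes against vehicle held in both ranges of label numbers, in 12 of 12 values at 4 h and 10 of 10 at 22 h. In 11 of those 12 and 7 of those 10 the 4 IUB288 livers did not overlap with the 4 vehicle livers. For Glul, Oat and Rgn at both times, and Lect2 and Tbx3 at 4 h, this follows from the lack of overlap over all livers. Not forced in this way were only Slc1a2 at 4 h in label numbers 13 to 24 and Lect2 at 22 h in 1 to 12. The changes were called on the same livers, so neither the count of directions nor that of overlap is a separate test. The share over all genes was not computed for these ranges.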

How the data were processed

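Liver RNA of 24 mice was sequenced. Per the labels' protocols, RNA came from frozen liver (miRNeasy Mini Kit) and libraries from the KAPA mRNA HyperPrep kit. The aligner GSNAP, the trimmer cutadapt and the build GRCm38 are named per the submitters' processing notes; versions, the counting tool, annotation and strand setting are not given in the sources used here. The authors deposited a table of counts per gene by Entrez number, without normalization, with 536520 values, each whole and at least 0. Genes are listed in text order of Entrez number up to 50932, and genes sorting after it, Rspo3 and Nkd1 among those not in the table, are not analysed here. Columns were matched to mice by the name in the description.

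The unit check did not accept the quoted layout as counts, so the quasi-likelihood count test named first in the design was not run, and limma-voom, its named alternative, is the main test. Genes with a count of at least 10 in enough libraries (8) and 15 in total were kept, 11508 genes with 99.92% of counts. TMM scaling was written out in R 4.3.3 (trims 30% and 5%), voom used an offset of 0.5, and limma 3.58.1 fitted 3 group means (21 residual, 4.08 prior degrees of freedom) with Benjamini-Hochberg adjustment over all genes of a comparison and a threshold of 0.05. CPM is counts scaled to 1000000 per library after TMM. A value ± is SD for levels and SE for fold changes. Correlations used scipy 1.17.1, with 40320 exact permutations.

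The members and the 17 gene lists were chosen with earlier results of these data known. Named list genes are up to 3 per list and comparison by smallest p, at 1 CPM or more in a group, of the lists for pericentral, periportal and Wnt genes, glutamate and ascorbate; others are said to be named after their values were seen. Of the genes that the rule for similar patterns names, 1 is not reported here. Replicate numbers name different mice: over 24 same-number pairs, correlations of deviations ran from -0.22 to 0.13. Label numbers 1 to 12 and 13 to 24 are compared because labels run so; they do not call it a batch.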

Additional observations from a re-analysis of the deposited data

Results flagged for a closer look

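Among the 27 sets of 8 livers (9 genes in 3 groups), 2 had an extreme liver, where chance gives about 1 in 20 sets. Axin2 in vehicle replicate 1 was at 23.9 CPM against 16.4 in the next liver, a gap of 0.633 of the group's range. Tbx3 in replicate 6 of the 22 h group was at 108.1 CPM against 72.8 in the next liver, a gap of 0.573 of the range.

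Several genes differed between the IUB288 times by the limma-voom test of 22 h against 4 h. Tbx3 was higher at 22 h by 0.72 on the log2 scale (adjusted p 0.000706). Among pericentral markers, Nr1i3 (1.26), Cyp2a5 (0.65), Cyp2e1 (0.57) and Ang (0.40) were higher at 22 h, and Slc22a3 (-1.65) and Znrf3 (-0.45) were lower. Of the Wnt targets, Tnfrsf19 was higher (1.39), and Myc (-1.02) and Jun (-0.75) were lower. Of the ligands and receptors, Wnt5b (0.80) and Ror1 (0.72) were higher, and Lrp5 (-0.72), Lrp6 (-0.30) and Lgr4 (-0.30) were lower. In the beta-catenin pathway, Tle2 (0.73), Tcf7l2 (0.56), Tle1 (0.48) and Btrc (0.22) were higher, and Fbxw11 (-0.39), Axin1 (-0.38) and Crebbp (-0.24) were lower. In glutamate and ornithine metabolism, Slc38a7 was higher (0.54), and Slc25a15 (-1.28) and Got1 (-1.18) were lower. Of the ascorbate list, Slc23a3 (-1.04), Gusb (-0.52) and Ugp2 (-0.29) were lower, as was Dhcr7 (-0.88), a listed gene of cholesterol synthesis. Adjusted p ran from 1.02e-09 (Lrp5) to 0.0268 (Ang). Ang lost this call (adjusted p from 0.0542 to 0.0660) when any of 4 livers was left out, replicates 1 and 6 at 4 h and replicates 6 and 7 at 22 h.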

How the results depend on the processing

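Of 864 values (27 gene results under 32 alternatives each), 851 kept their direction and their side of the threshold, none lost a call, 9 gained a call and 4 turned direction. The 4 that turned were all near 0: Gulo at 4 h was 0.0020 without vehicle replicate 4 (range without 1 liver -0.095 to 0.002), Gulo at 22 h was -0.0033 without 22 h replicate 6 (-0.0033 to 0.14), and Rgn between the times was 0.001 without 4 h replicate 5 and 0.024 without 22 h replicate 7 (-0.15 to 0.024). Slc1a2 at 22 h gained its call with scaling by total counts (adjusted p 0.0497), the replicate block (0.0457) and without any of 5 livers (vehicle replicate 4, 4 h replicates 1 and 4, 22 h replicates 5 and 8; 0.0253 to 0.0499). Leaving out 1 liver at a time, 6 to 6 of the 9 genes passed at 4 h, 5 to 6 at 22 h and 1 to 2 between the times. Over all genes the counts were 4731 to 5230, 3832 to 4277 and 3076 to 3722. Replicate numbers did not pair the mice. In 5 of the 24 same-number pairs over all comparisons, the IUB288 liver named first correlated best with the liver of its own number. With the replicate block 7, 6 and 1 of the 9 genes passed, and 5425, 4388 and 3433 of all genes; Axin2 at 4 h then passed (-0.31, adjusted p 0.0469). Of the correlations with Glul, Lect2 in vehicle livers turned to -0.096 with scaling by total counts, and to -0.34 without 2 livers. Oat and Slc1a2 at 4 h turned to -0.23 and -0.32 without 2 livers. Wnt9b at 22 h, near 0, turned to -0.0098 with limma-trend and ran from -0.058 to 0.18 without 1 liver. Scaling by total counts moved the median of all genes at 4 h from -0.07 to -0.13, and the higher share of calls between the times from 48.8% to 56.8%. The DESeq2 alternative was not run. At this depth 11 of the 27 Wnt ligands and modulators in the table could be tested.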
